A study of Mus musculus with 8 samples.

Results

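miR-21a is a mouse microRNA (miRNA) hairpin whose stem yields a pair of mature products, mmu-miR-21a-5p and mmu-miR-21a-3p. Both were taken by name from tables of 1907 mature miRNAs, so the account covers 2 of 1907 entries, and both passed the filter on low counts that 357 miRNAs passed. Small RNA was sequenced from bone marrow-derived macrophages of wild-type mice. The LPS group (3 libraries) received lipopolysaccharide, the bacterial ligand of Toll-like receptor 4, at 100 ng/ml for 3 h, and the control group (3 libraries) received none. Cells of both groups came from animals aged 8 to 12 weeks and were grown for 6 days in L929 supernatant, a fibroblast-conditioned source of macrophage colony-stimulating factor (M-CSF). The labels do not give strain or sex, nor do they say if each library had its own animal or culture, so p-values measure the spread between these libraries, which may be technical.

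A miRNA hairpin is cut by Drosha and Dicer into a short duplex, and an Argonaute protein usually keeps one strand as the guide and discards its partner. The kept strand pairs through its seed, bases 2 to 8, with messenger RNAs and lowers their translation and stability. In miR-21 the 5p strand is the usual guide. It is among the most abundant miRNAs of many cell types and represses the tumour suppressor Pdcd4. In macrophages it has been described as induced by Toll-like receptor signalling and as favouring interleukin-10 through loss of Pdcd4. The 3p strand is the usual passenger, although it can also enter Argonaute.

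The sequences of the arms are shown because the comparison turns on products of a single stem that carry different seeds. They are RefSeq sequences of the build GRCm38.p6, written 5′ to 3′ with the seed in capitals, followed by the related miR-21c and miR-21b.
mmu-miR-21a-5p: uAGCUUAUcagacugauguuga
mmu-miR-21a-3p: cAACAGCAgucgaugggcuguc
mmu-miR-21c: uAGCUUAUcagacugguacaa
mmu-miR-21b: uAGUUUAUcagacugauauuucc
The hairpin, with the 5p arm and then the 3p arm in capitals, shows how both are cut from one stem.
Mir21a: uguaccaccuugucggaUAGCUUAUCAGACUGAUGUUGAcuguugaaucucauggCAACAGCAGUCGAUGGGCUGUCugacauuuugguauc

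The Mir21a hairpin is 92 bases long and lies on the minus strand at chr11:86584067-86584158. The 5p arm covers hairpin bases 18 to 39 (chr11:86584120-86584141) and the 3p arm bases 56 to 77 (chr11:86584082-86584103), with 16 bases between them. In the fold of lowest energy, 19 of the 22 bases of the 5p arm paired with bases of the 3p arm. The hairpin lies within the span of Vmp1 (chr11:86583858-86683836), a gene for an endoplasmic reticulum protein of autophagy that is read from the same strand, and its 3′ end is 209 bases from that gene's downstream end. The reference table gives spans only, so whether the position is exonic or intronic was not read from it. The nearest other annotated hairpin on chromosome 11 is 268 kb away.

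Among 1679 distinct RefSeq mature sequences, miR-21c alone shared the 5p seed and none shared the 3p seed. Those sequences matched 1623 of the 1907 entries by name, so entries without a match were not searched and could share either seed. miR-21c (chr8:128278188-128278208, minus strand) and miR-21b (chr3:29636768-29636790, plus strand) are each 5 edits from miR-21a-5p, counting insertions and deletions. Both had 0 counts in all 6 libraries, where 3 counts would correspond to 0.712 to 0.9496 CPM (counts at a common library size, after TMM scaling). miR-3965 and miR-3967 are each 4 edits away and also had 0 counts throughout; these and miR-21b were added after the values were seen. No RefSeq mature sequence other than the arms themselves was within 3 edits of either arm. How reads that fit several places were assigned is not given in the sources used here.

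Library totals ranged from 3280688 to 4312555 counts. Of 7 listed markers of myeloid cells, to which macrophages belong, 6 were tested. The list summed to 274300 to 322320 CPM in LPS libraries and 277191 to 301867 CPM in controls. Most of this was miR-22-3p (235059 ± 20200 CPM with LPS, 232959 ± 11732 CPM in controls), so the sum says little of the other markers. miR-223-3p averaged 2339 ± 331 CPM with LPS and 2279 ± 984 CPM in controls. miR-511-3p averaged 197 ± 19.3 and 218 ± 23.5 CPM, and miR-511-5p 29.2 ± 2.79 and 38.3 ± 6.49 CPM. The defining arm miR-142a-3p was listed at 0 in every library, while its partner miR-142a-5p averaged 57063 ± 4951 CPM with LPS and 56253 ± 1695 CPM in controls (SD, n = 3 each). Of these markers miR-223-5p fell (log2 fold change -0.86, SE 0.15, edgeR adjusted p = 0.00623). Its more abundant partner miR-223-3p did not pass (0.04, SE 0.25, edgeR adjusted p = 0.998). Fibroblast and stromal markers, the lineage of L929, summed to 3.04 to 5.70 CPM in LPS libraries and 3.56 to 6.30 CPM in controls, with 3 of the 8 at 0 throughout, among them both arms of miR-145a. Erythroid markers summed to 0.490 to 1.58 CPM in LPS libraries and 0 to 0.485 CPM in controls, with 3 of the 5 at 0, and endothelial markers to 0 CPM in LPS libraries and at most 0.242 CPM in controls. Lymphocyte markers, in effect miR-150-5p, summed to 63.7 to 77.6 CPM in LPS libraries and 56.3 to 71.3 CPM in controls. Epithelial markers summed to 202.9 to 270.3 CPM in LPS libraries and 220.3 to 252.4 CPM in controls. Because the counting of reads with several matches is not known, a marker listed at 0 is not shown to be absent from the cells. The part of other cell types in the results was not tested.

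The guide arm did not pass the test for a change in level. mmu-miR-21a-5p had 693861, 839154 and 996118 counts in the LPS libraries, against 1061279, 725387 and 818250 in the controls. Scaled to library size with TMM factors, these were 219639, 205658 and 252745 CPM after LPS and 251896, 176023 and 198386 CPM in controls. The groups overlapped: the highest control library was almost level with the highest LPS library, and the lowest value belonged to a control.

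Mean levels of miR-21a-5p were 226014 ± 24182 CPM with LPS and 208768 ± 38988 CPM in controls (SD, n = 3 each), a log2 fold change of 0.11 (SE 0.14). The 95% interval of the log2 fold change was -0.19 to 0.42, which spans 0 (edgeR adjusted p = 0.943). The result is a level relative to the other miRNAs. In bulk RNA, fewer cells and less RNA per cell cannot be told apart.

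Because it is so abundant, miR-21a-5p was also read as a share of all counts. It took 21.1%, 21.02% and 24.3% of the LPS libraries and 24.6%, 18.5% and 20.4% of the controls. The Wilson 95% interval, which covers counting error only, was 21.1% to 21.2% in LPS replicate 1, the shallowest library. The means were 22.1% ± 1.84 with LPS and 21.2% ± 3.11 in controls (SD, n = 3 each; two-sided exact permutation p = 0.6, where the smallest possible p is 0.1). The difference of 0.959 percentage points turned to -0.363 without control replicate 2 and to -0.1005 without LPS replicate 3.

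miR-21a-5p was the first or second most abundant miRNA of every library. Shares and ranks here are of the counts as listed, in which some miRNAs may be undercounted. For example, miR-125b-5p averaged 58.7 CPM and miR-125b-2-3p 837 CPM, and miR-181a-5p averaged 3.37 CPM and miR-181a-1-3p 223 CPM. How reads with several matches were counted is not known, and its effect on shares and ranks was not tested. Among the listed counts, the place of miR-21a-5p varied by library. It led in LPS replicate 3 and control replicate 1, and miR-22-3p led in the other 4. The ratio of miR-21a-5p to miR-22-3p was 0.852, 0.939 and 1.11 after LPS and 1.14, 0.748 and 0.816 in controls, so the order of these neighbours is not resolved beyond their spread. The next miRNA down, miR-27b-3p, averaged 64584 ± 8172 CPM after LPS and 71249 ± 9519 CPM in controls (SD, n = 3 each), far below either.

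The passenger arm differed between the groups. mmu-miR-21a-3p had 32662, 31283 and 44704 counts with LPS, against 29134, 18379 and 23495 in controls. Its levels were 10339, 7667 and 11343 CPM in LPS libraries and 6915, 4460 and 5696 CPM in controls. Every LPS library lay above every control, with LPS replicate 2 closest to control replicate 1. Of the 357 miRNAs, 31 were separated in this way and direction, a share of 8.68%.

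miR-21a-3p averaged 9783 ± 1900 CPM with LPS and 5690 ± 1228 CPM in controls (SD, n = 3 each), a 1.72-fold higher mean. Its log2 fold change was 0.78 (SE 0.18, 95% interval 0.38 to 1.18; edgeR adjusted p = 0.0320), so it rose. Over all miRNAs, 18 passed this test (5.04% of those tested), of which 13 rose (3.64%) and 5 fell. Upper-quartile scaling left 8 that rose and 5 that fell, and 11 passed without LPS replicate 3. The call of miR-21a-3p ended without LPS replicate 1 (adjusted p = 0.0795), LPS replicate 3 (0.0863), control replicate 2 (0.0811) or control replicate 3 (0.0851) and with upper-quartile scaling (0.0780), while the log2 fold change stayed between 0.64 and 0.94 in all 15 alternatives.

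**Figure D1:**
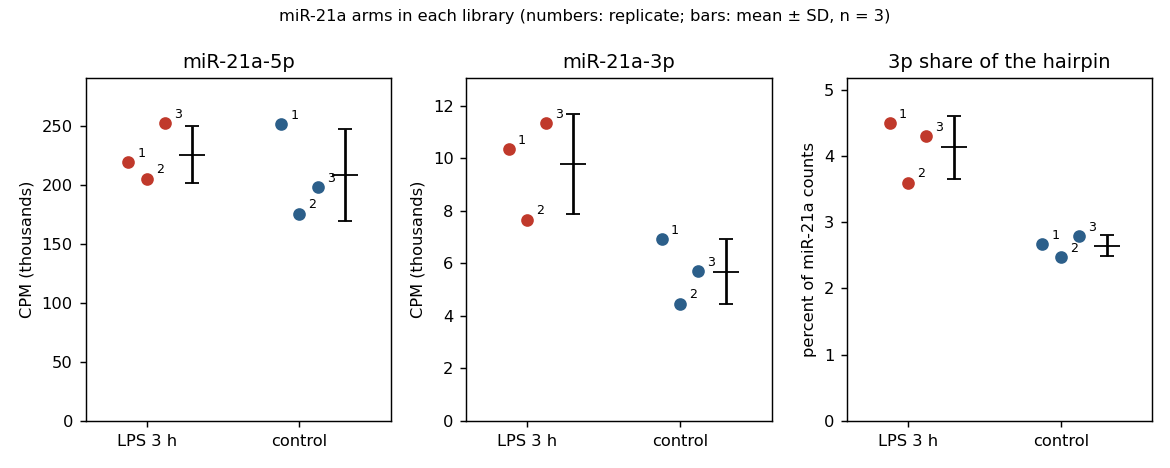
CPM of miR-21a-5p and miR-21a-3p and the 3p share of miR-21a counts in each library, LPS left of control. Points are libraries numbered by replicate and bars are mean ± SD (n = 3). The 5p arm overlaps between the groups, while the 3p arm (7667 to 11343 CPM with LPS, 4460 to 6915 CPM in controls) and its share do not.

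As a share of all counts, miR-21a-3p made up 0.996%, 0.784% and 1.09% of the LPS libraries and 0.676%, 0.470% and 0.586% of the controls. Its mean share was 0.956% ± 0.156 with LPS and 0.577% ± 0.103 in controls (SD, n = 3 each; two-sided exact permutation p = 0.1, the smallest this design can give). In the order of all miRNAs the arm stood at places 15, 17 and 14 with LPS and at places 18, 27 and 22 in controls.

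By fold change, miR-21a-3p was a moderate riser, 16th of the 357 tested. By the amount gained, a measure that favours abundant miRNAs, it stood near the top of the risers. Its mean rose by 4092 CPM, second among the 13 risers after miR-222-3p, an arm of a pair known to restrain the cell cycle inhibitor p27, with 7036 CPM. The call of miR-222-3p ended in 6 of 15 alternatives, with adjusted p up to 0.0995 (without control replicate 1). miR-155-5p, the arm that targets several inhibitors of inflammatory signalling, followed with 3942 CPM. Only 1 riser was more abundant than miR-21a-3p. The group means of miR-21a-5p, which did not pass, differed by more, 17246 CPM. None of the 8 miRNAs next to miR-21a-3p in mean level, from miR-99b-5p (13985 CPM) to miR-30b-5p (6274 CPM), passed the test, and their log2 fold changes ran from -0.17 to 0.07.

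**Figure D2:**
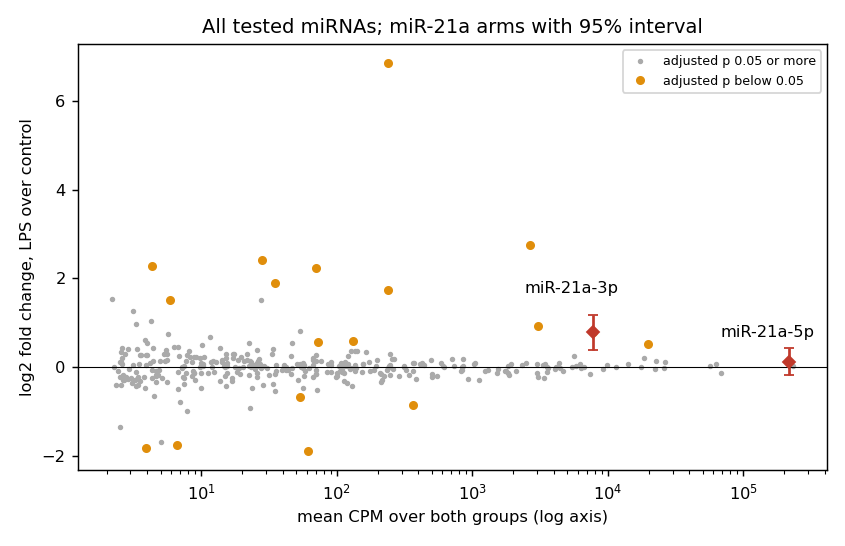
Log2 fold change, LPS over control, against mean CPM (log axis) for the 357 tested miRNAs. Orange points passed an adjusted p of 0.05, and the red diamonds with 95% intervals are the miR-21a arms. The 3p interval (0.38 to 1.18) lies above 0 and the 5p interval (-0.19 to 0.42) spans it.

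Ratios within a library need no scaling, so each arm was also set against the 10 most abundant other miRNAs. The 10 ratios of an arm share its counts, so they largely restate its change in level and are not separate support for it. The log2 ratio of miR-21a-3p was higher with LPS against all 10, by 0.27 to 0.93 with a median of 0.74. In 7 of the 10 every LPS library exceeded every control. How often other miRNAs were separated in this way was not counted. The groups overlapped against miR-27b-3p, miR-221-3p and miR-222-3p, the last of which itself rose. For miR-21a-5p the differences ran from -0.39 to 0.27 with a median of 0.08, and in 1 of the 10 (miR-10a-5p) the groups were separated.

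The balance of the arms within each library differed between the groups. There were 21.2, 26.8 and 22.3 counts of the 5p arm per count of the 3p arm in LPS libraries, against 36.4, 39.5 and 34.8 in controls. The 3p arm thus made up 4.50%, 3.59% and 4.295% of the miR-21a counts with LPS and 2.67%, 2.47% and 2.79% in controls. Again no LPS library overlapped a control, a pattern of the arm ratio seen in 13 of 100 hairpins (13%).

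The 3p share averaged 4.13% ± 0.473 with LPS and 2.64% ± 0.162 in controls (SD, n = 3 each; two-sided exact permutation p = 0.1, the smallest possible). On the log2 scale the balance of 3p over 5p was -4.54 with LPS and -5.20 in controls, a difference of 0.66 (SE 0.16, 95% interval 0.33 to 0.99; limma adjusted p = 0.00858). The arms therefore changed unequally, with the passenger gaining on the guide. The call of unequal arms ended without LPS replicate 3 (difference 0.63, adjusted p = 0.0747) and without a trend in the variance (0.66, adjusted p = 0.0639), and the difference was 0.59 to 0.76 in all 11 alternatives.

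Both arms together held 23.1% ± 1.96 of LPS counts and 21.8% ± 3.21 of control counts (SD, n = 3 each; two-sided exact permutation p = 0.5). The summed share overlapped between the groups.

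Set beside the other hairpins with both arms tested, miR-21a stood 9th of 100 in the size of the gain of its less abundant arm. Of the 100 hairpins 12 passed the test (12%), and in 9 of them (9%) the less abundant arm gained. The median over all hairpins was 0.03. Larger gains past the threshold were those of miR-155 (3.87), miR-146a (2.21), miR-125a (1.97), let-7e (1.70), miR-222 (1.17), miR-221 (0.79) and let-7i (0.79), all as log2 differences. The next passing hairpin below miR-21a was miR-674 (0.65), in which, as in let-7i, neither arm passed the test of level alone. Among these gains the calls of let-7i and miR-674 were the less steady: they ended in 6 and 5 of 11 alternatives, with limma adjusted p up to 0.288 and 0.198. The less abundant arm lost in miR-27a (-2.01), miR-223 (-0.95) and miR-26b (-0.70). Of these, the call of miR-223 ended in 3 of 11 alternatives, that of miR-26b in 5 and that of miR-27a in 0. Without a trend in the variance 7 hairpins passed.

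**Figure D3:**
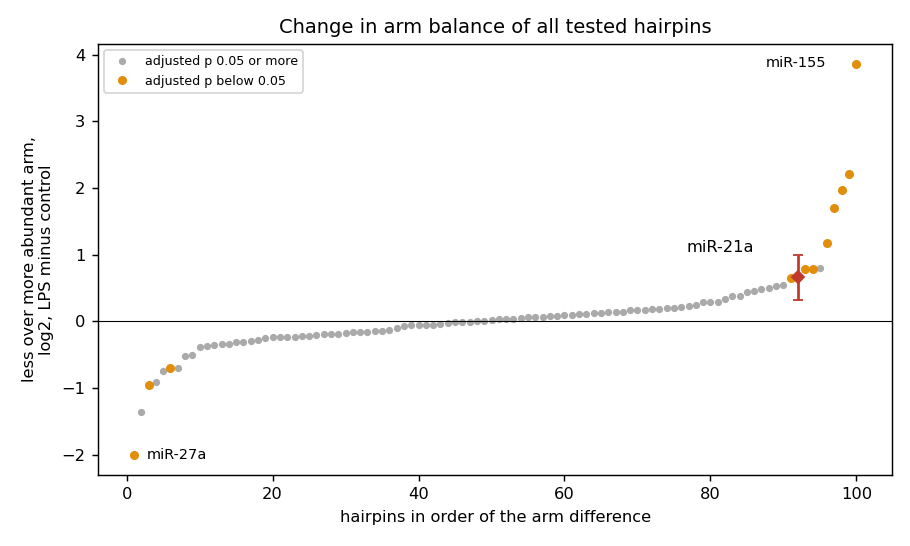
Change in the balance of arms, less over more abundant, as a log2 difference LPS minus control, for 100 hairpins in rising order. Orange points passed an adjusted p of 0.05 and the red diamond is miR-21a with its 95% interval (0.33 to 0.99). It lies among the gains at the right, below miR-155 (3.87).

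The passenger of miR-21a was abundant. miR-21a-3p, at a mean of 7737 CPM over the 6 libraries, was the most abundant of the 100 less abundant arms, ahead of miR-221-5p (3037 CPM), miR-151-5p (1822 CPM) and miR-423-5p (1122 CPM). No other such arm reached 1000 CPM. Of these 4 hairpins, miR-21a and miR-221 passed the arm test, and miR-151 (0.05, SE 0.21) and miR-423 (-0.22, SE 0.18) did not. Within its hairpin the share was small: the 3p share of 2.64% in controls lay below the median of 6.73% for the less abundant arm, and 34 hairpins had a lower share.

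The within-group SD of log2 CPM was 0.21 for miR-21a-5p and 0.31 for miR-21a-3p, against a median of 0.15 for the 56 miRNAs that averaged at least 1000 CPM and 0.23 for all 357 tested. The 5p arm thus lay above the first median and below the second, and the 3p arm above both. Of those 56, 42 had a lower SD than the 5p arm and 53 a lower SD than the 3p arm.

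**Figure D4:**
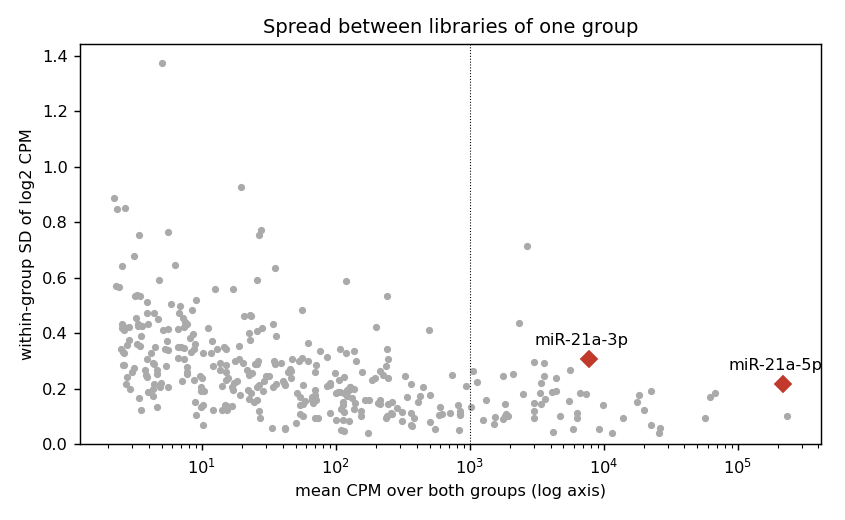
Within-group SD of log2 CPM against mean CPM (log axis) for the 357 tested miRNAs, with the miR-21a arms as red diamonds and a dotted line at 1000 CPM. Both arms (0.21 and 0.31) lie above the median of 0.15 right of the line.

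Deviations of the arms from their group means had the same sign in 4 of the 6 libraries. LPS replicate 2 lay below its group mean by both arms (-0.13 for 5p and -0.33 for 3p, in log2 CPM), and LPS replicate 3 above it by both (0.17 and 0.23). Control replicate 1 was above its group mean (0.29 and 0.30) and control replicate 2 below (-0.23 and -0.33). In LPS replicate 1 and control replicate 3 the signs differed, with 5p at -0.04 and -0.06 and 3p at 0.10 and 0.02. The log2 ratio of the arms accordingly had a within-group SD of 0.14, lower than that of either arm, against a median of 0.27 over hairpins, and 11 of the 100 hairpins had a lower one. All other hairpins had a scarcer less abundant arm, so this median is not matched in abundance. The ratio in miR-221, next in abundance by that arm, had an SD of 0.13.

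The miRNAs whose pattern over the 6 libraries lay nearest to each arm were found by the root mean square difference of centred log2 CPM, among 254 others that averaged at least 10 CPM. The measure includes the difference between the groups, so a neighbour shares the arm's fold change by construction, and the order is a description. Nearest to miR-21a-5p were let-7i-5p (0.08), miR-191-5p (0.08), miR-467e-5p (0.09), miR-101a-3p (0.09) and miR-378a-3p (0.09). Nearest to miR-21a-3p were miR-99b-3p (0.21), miR-210-5p (0.24), miR-32-5p (0.25), miR-7043-3p (0.28) and miR-221-5p (0.28). The difference between the arms was 0.35, which holds the group difference in their balance given above and put miR-21a-5p 13th for the 3p arm and miR-21a-3p 201st for the 5p arm.

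Other miRNAs linked to Toll-like receptor signalling give the setting, from a list of 22 arms that does not hold miR-21a. The list was chosen with earlier results of these data known and counts arms of the same hairpin separately. Its share of risers is therefore a description and not a test. Of the 17 tested, 6 rose, 0 fell and 11 did not pass, where 13 of all 357 tested rose (3.64%). The median log2 fold change was 0.24 in the list and 0.01 over all tested miRNAs. By log2 fold change in edgeR, the arms of miR-155 that rose were the 3p (6.85) and the 5p (2.75). They were joined by let-7e-3p (1.89), miR-125a-3p (2.24), miR-99b-3p (0.58) and miR-146a-3p (2.41). Their more abundant partners let-7e-5p (0.17), miR-125a-5p (0.24), miR-99b-5p (0.07) and miR-146a-5p (0.21) did not pass, with edgeR adjusted p from 0.664 to 0.943. The call of miR-99b-3p was lost in 10 of 15 alternatives, each removal of 1 library among them, with adjusted p up to 0.134 (without control replicate 2). Of the 6, 5 were the less abundant arm of their hairpin. Such arms made up 100 of the 357 tested miRNAs, and the more abundant arms of the same hairpins another 100. Among all miRNAs, 9 of the 13 risers were less abundant arms, miR-21a-3p among them, 3 were the more abundant arm and 1 had no partner arm in the test.

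**Figure D5:**
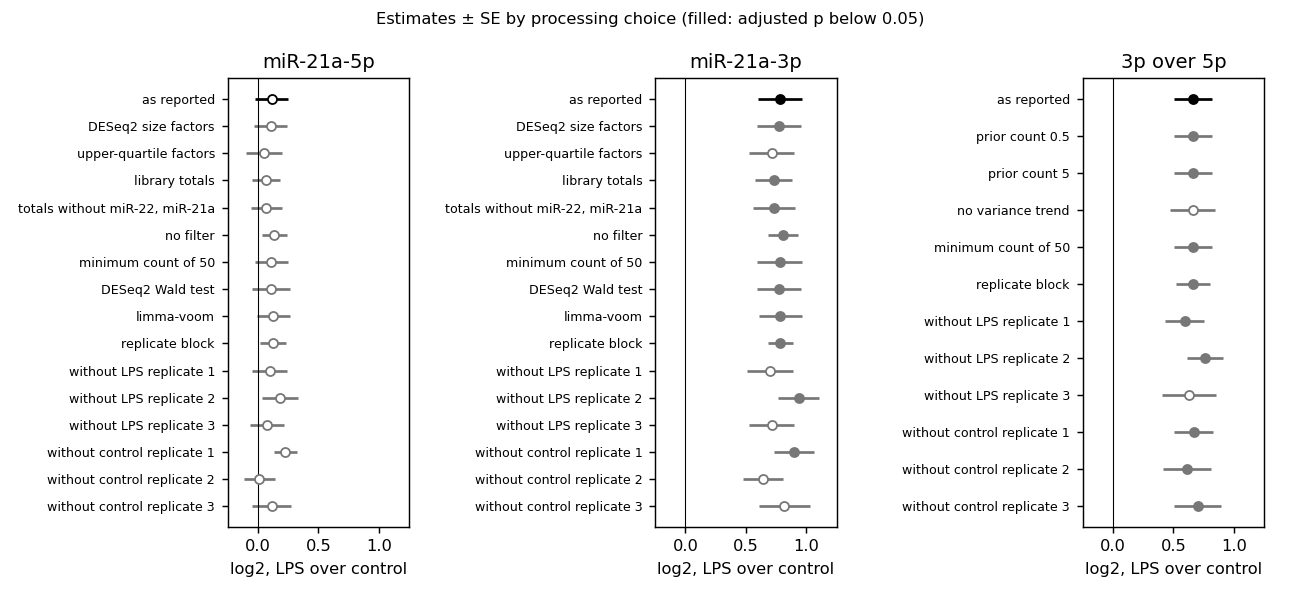
Log2 estimates ± SE, LPS over control, for miR-21a-5p, miR-21a-3p and the 3p over 5p balance under each processing choice. Filled points passed an adjusted p of 0.05 and black marks the estimate as reported. The 3p estimates (0.64 to 0.94) and the balance (0.59 to 0.76) stay above 0, with 5 and 2 open points, and no 5p point is filled.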

How the data were processed

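Total RNA was made into small RNA libraries with a TruSeq kit, as the labels' protocols state. The authors deposited raw counts, whole numbers for each mature miRNA, in a file per library. Tools listed, per the submitters' processing notes, are SAMtools 0.1.19 and Novoalign, with the build GRCm38.p1 (mm10). For the counting tool, annotation release, strand and reads with several matches, the setting is not given in the sources used here; such reads could alter counts of near-identical miRNAs. Coordinates and sequences come from RefSeq tables of GRCm38.p6.

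LPS was compared with control by edgeR 4.0.16 (R 4.3.3; quasi-likelihood F test, TMM factors of 0.960 to 1.05, filterByExpr with a minimum count of 10). The Benjamini-Hochberg adjustment ran over all 357 tested miRNAs, which held 99.97% of counts, and an adjusted p below 0.05 was called. Arms were compared by limma 3.58.1 on the log2 CPM (prior count 2) of the less minus the more abundant arm over 100 hairpins, with a variance trend and the same adjustment. The trend was fitted on the mean log2 CPM of the less abundant arm alone. Spread and likeness used log2(CPM + 0.5). Single values had exact permutation tests, two-sided. The hairpin was folded with RNAfold 2.7.2. Both fits were also run on simulated counts with the same spread for all miRNAs and with arms drawn independently. In the data the spread differed between miRNAs and the arms often deviated together, so no conclusion is drawn from that run. Within groups, library pairs differed by more than sampling noise (lowest chi-square over its degrees of freedom 63.0), and all 6 were kept apart. Alternatives included DESeq2 1.42.0, limma-voom, other scalings and filters, a replicate block and leaving out each library; those of miR-222-3p, miR-221-5p and miR-210-5p were chosen after seeing the data. The 2 chromosome conformation samples were not analysed here. The members, the lists and the rule for other named miRNAs (seed or sequence relatives, neighbours in level, pattern or arm difference, and the Toll-like receptor list) were chosen with earlier results of these data known. Arms named for their gain in CPM or for their abundance among less abundant arms fall outside that rule and were chosen after their values were seen.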

Additional observations from a re-analysis of the deposited data

How the results depend on the processing

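Leaving out 1 library moved the log2 fold change of miR-21a-3p between 0.64 and 0.94 and its adjusted p between 0.00751 and 0.0863, and ended its call in 4 of 6 cases; upper-quartile factors ended it too, at 0.71. The arm difference ran from 0.59 to 0.76 when 1 library was left out and lost its call in 1 of 6, and it lost it with no variance trend, at 0.66. The difference in the share of miR-21a-5p ran from -0.363 to 2.67 percentage points when 1 library was left out, and changed sign without LPS replicate 3 (-0.1005) or control replicate 2 (-0.363). The miR-21a-5p log2 fold change kept its sign, at 0.01 to 0.23, and passed in none of 15 alternatives, while the shares of miR-21a-3p kept their direction in all of theirs. The number of changed miRNAs was 11 to 18 when 1 library was left out, the lowest without LPS replicate 3, and 13 to 26 otherwise. The number of hairpins with unequal arms was 8 to 14 when 1 library was left out and 7 with no variance trend. With a replicate block the 3p arm (log2 fold change 0.79, adjusted p = 0.00519 by edgeR), the arm difference (0.66) and the 5p arm (0.13) stayed on their side of the threshold; the deviations of same-numbered libraries correlated at 0.02, 0.14 and -0.04 across miRNAs, so the numbers were not taken as pairs, and not every library correlated best with its own number. The cause of these changes was not tested.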
